A study of Drosophila melanogaster with 36 samples.

Results

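The Cyp4e subfamily of Drosophila melanogaster holds 3 cytochrome P450 genes on this array, Cyp4e1, Cyp4e2 and Cyp4e3, and a P450 gene of another CYP4 subfamily, Cyp4ad1, lies directly beside Cyp4e2. These 4 genes were taken by their symbols in the platform's annotation, out of 159 named genes, and they account for 16 of the 656 spots with 1 gene symbol among 1936 spots on each array. In the RefSeq annotation, Cyp4ad1, Cyp4e2 and Cyp4e1 follow each other on chromosome arm 2R, with the larval cuticle gene Lcp4 before them and the maltase gene Mal-A2 after them. The microRNA gene mir-986 lies within the span of Cyp4e2, and the maltase gene Mal-A1 overlaps Cyp4e1. Cyp4e3 lies apart from them on arm 2L, between lncRNA:CR46529 and zf30C.

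Cytochrome P450s are haem enzymes that insert 1 oxygen atom into a substrate, and insects use many of them to clear plant toxins, drugs and insecticides. The CYP4 family is known in vertebrates for the hydroxylation of fatty acids, and in insects it has spread into many copies, some of which respond to foreign compounds. Phenobarbital, a barbiturate, and caffeine, a xanthine, are used as general inducers of P450 genes in flies. P450 genes often lie in tandem, so that adjacent copies share a neighbourhood but not always a response.

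The study compared flies exposed to a compound for 4 h with unexposed flies on a 2-colour array of detoxification genes (P450s, glutathione S-transferases and esterases). All exposed and control flies were of the y; cn bw sp strain. Feeding larvae of the third instar, 4.5 days old when frozen, were kept on food with 10 mM phenobarbital, 1.5 mg/ml caffeine, 0.013% diazinon, 0.067% dicyclanil, 20 ppm lufenuron, 6e-05% spinosad or 6 ppm nitenpyram, and their controls on food without the compound. Diazinon is an organophosphate, dicyclanil and lufenuron disturb insect growth, and spinosad and nitenpyram act on nicotinic acetylcholine receptors. Adult males, 4 days after emergence, were placed in 30 ml vials that had been coated from 150 µl of acetone carrying 10 µl of 1 M phenobarbital or 10 µg of DDT, an organochlorine, and their controls in vials coated from acetone alone. The label of the exposed channel of DDT array 1 gives 5 days, where the others give 4. Each RNA pool came from 8 samples of 50 whole animals, 400 in all.

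Each of the 9 exposures had 4 arrays of 1 exposed pool against 1 control pool, with the exposed pool in Cy5 on arrays 1 and 3 and in Cy3 on arrays 2 and 4. The arrays of an exposure were therefore repeats of a single pair of pools. The p-values below, save those over larval pool pairs, measure the spread between hybridisations and not the spread between populations of flies. Array 4 of the adult phenobarbital set and array 4 of the DDT set held identical values at all 1936 spots, and both were left out, which left 3 arrays in each adult set and 34 in all. Between 1504 and 1732 spots gave a ratio on an array. The files hold ratios without spot brightness, so the strength of expression of each gene, and the tissue that expressed it, were not measured. In RNA of whole animals, fewer cells of a type and less RNA per cell cannot be told apart.

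The labels name the dye of each pool, but not which dye is on top of the deposited ratio. Cy5 over Cy3 was used here, which is the convention of the software named in the processing notes. With it, Cyp6a2, Cyp6a8 and Cyp6a9, P450 genes known for induction by phenobarbital, were higher in exposed flies on 4 of 4 larval and 3 of 3 adult phenobarbital arrays. If the ratio ran the other way, every higher below would read lower. Of 668 spots without a gene symbol that gave a ratio on all 34 arrays, 174 changed side with the dye of the exposed pool on every array and 0 kept the same side. The ratios of all 9 exposures were therefore taken as deposited without being turned for the dye swap. Spots with a dye bias would also change side in ratios already turned, so this count alone does not settle it. Cyp6a2, Cyp6a8 and Cyp6a9 bear on the phenobarbital arrays only.

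Values below are log2 ratios of exposed over control, averaged over the 4 spots of a gene and set relative to the median named gene of the array. A gene was called changed at an adjusted p under 0.05 (limma, with a dye term, adjusted over the 159 genes) and at least 1.5-fold.

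In phenobarbital larvae Cyp4e2 and Cyp4e3 both rose more than 4-fold, and Cyp4e1 and Cyp4ad1 did not pass the test. The 2 genes that rose lie on different chromosome arms, and the 2 that did not pass flank Cyp4e2. So 2 of the 4 genes were called, where 43.4% of the 159 named genes were called in this comparison.

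The log2 ratio of Cyp4e2 was 2.69, 1.25, 3.06 and 1.31 on the 4 phenobarbital larval arrays. All 4 arrays were above 0, and the arrays with the exposed pool in Cy5 were the higher ones. The estimate was 2.08 ± 0.17 (SE, n = 4 arrays), a 4.23-fold rise (limma adjusted p = 1.71e-11), which placed the gene 16th from the top among the named genes. Cyp4e3 read 2.56, 1.79, 2.63 and 1.73 on the same arrays. Its estimate was 2.18 ± 0.16 (SE, n = 4), a 4.53-fold rise (limma adjusted p = 8.90e-13), at rank 14. Both genes showed their rise under either dye.

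The log2 ratio of Cyp4e1 was -0.05, -0.04, -0.09 and 0.14 on the phenobarbital larval arrays. These averages over 4 spots lay close to the median gene, while the 2 places at which the array holds the gene did not: its first pair of spots read 0.59, -0.18, 0.63 and -0.16, and its second pair -0.69, 0.11, -0.82 and 0.43. The estimate was -0.01 ± 0.23 (SE, n = 4, limma adjusted p = 0.965), with a 95% interval of -0.47 to 0.45. Cyp4ad1 read -0.21, -0.90, -0.45 and -0.13. It lay below 0 on all 4 arrays, although its first pair of spots (0.08 on array 1) and its second (0.22 on array 4) each had an array above 0, and its estimate of -0.42 ± 0.22 did not pass the test (SE, n = 4, limma adjusted p = 0.115).

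**Figure D1:**
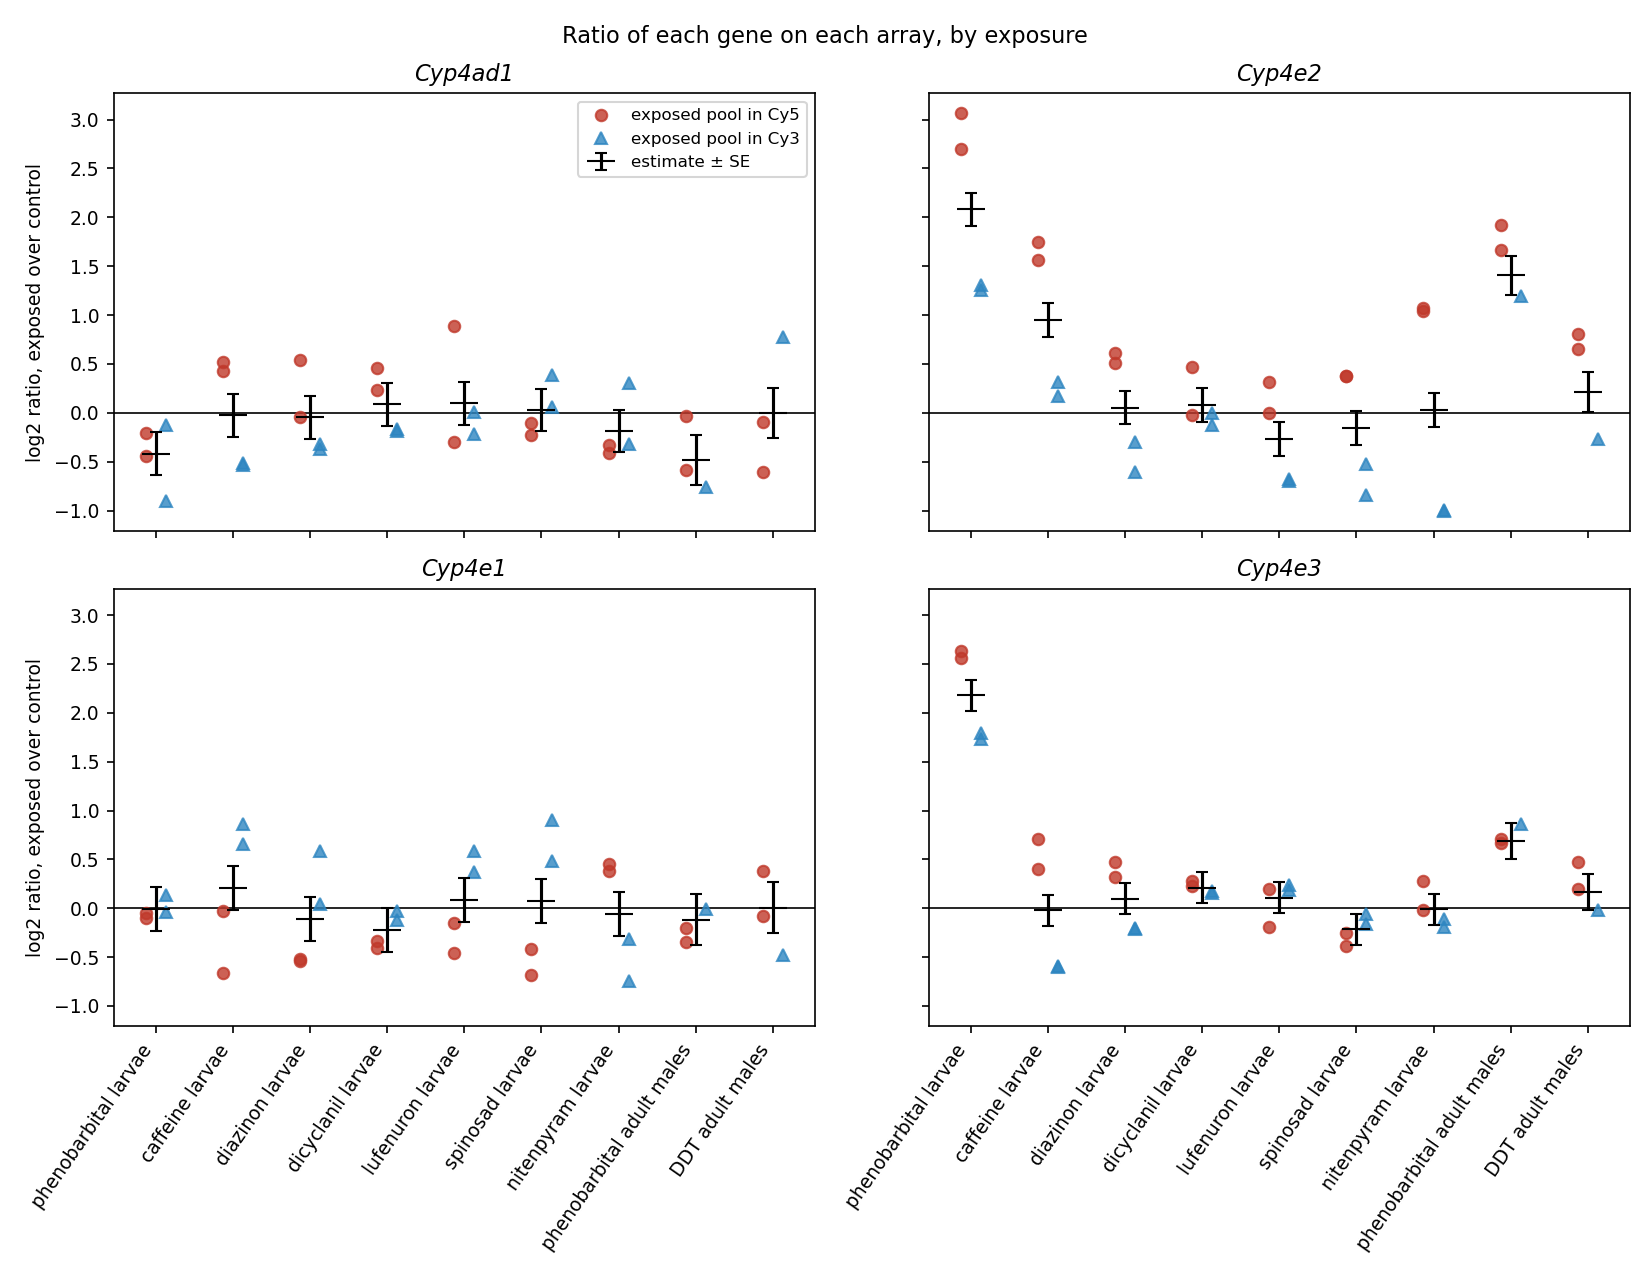
Log2 ratio of exposed over control RNA (vertical axis) for Cyp4ad1, Cyp4e2, Cyp4e1 and Cyp4e3 in 9 exposures, with 1 point per array (red circles, exposed pool in Cy5, and blue triangles, exposed pool in Cy3) and black bars for the limma estimate ± SE. Cyp4e2 and Cyp4e3 stand near 2 in phenobarbital larvae, and Cyp4e2 splits by dye in nitenpyram larvae, at 1.04 and 1.07 against -0.996 and -1.01.

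The zero point matters for the genes near it. In phenobarbital larvae the 4 reference genes of the array (Gapdh1 and the ribosomal protein genes RpL10Aa, RpS20 and RpS21) all fell relative to the median named gene, by 0.63 to 0.89 on the log2 scale. Centring on these 4 genes moved the median estimate of all named genes from -0.15 to 0.56 in phenobarbital larvae. It moved from -0.03 to 0.42 in caffeine larvae and from -0.07 to 0.15 in phenobarbital adult males. With that centring Cyp4e1 was called in phenobarbital larvae (0.70) and in caffeine larvae (0.67), and Cyp4ad1 turned to 0.29 in phenobarbital larvae and 0.43 in caffeine larvae, neither called. With the ratios as deposited, Cyp4e1 was at 0.77 and Cyp4ad1 at 0.36 in phenobarbital larvae, neither called. The calls of Cyp4e2 and Cyp4e3 in phenobarbital larvae, at 2.08 to 2.96 over the 4 choices, held under each of them.

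**Figure D2:**
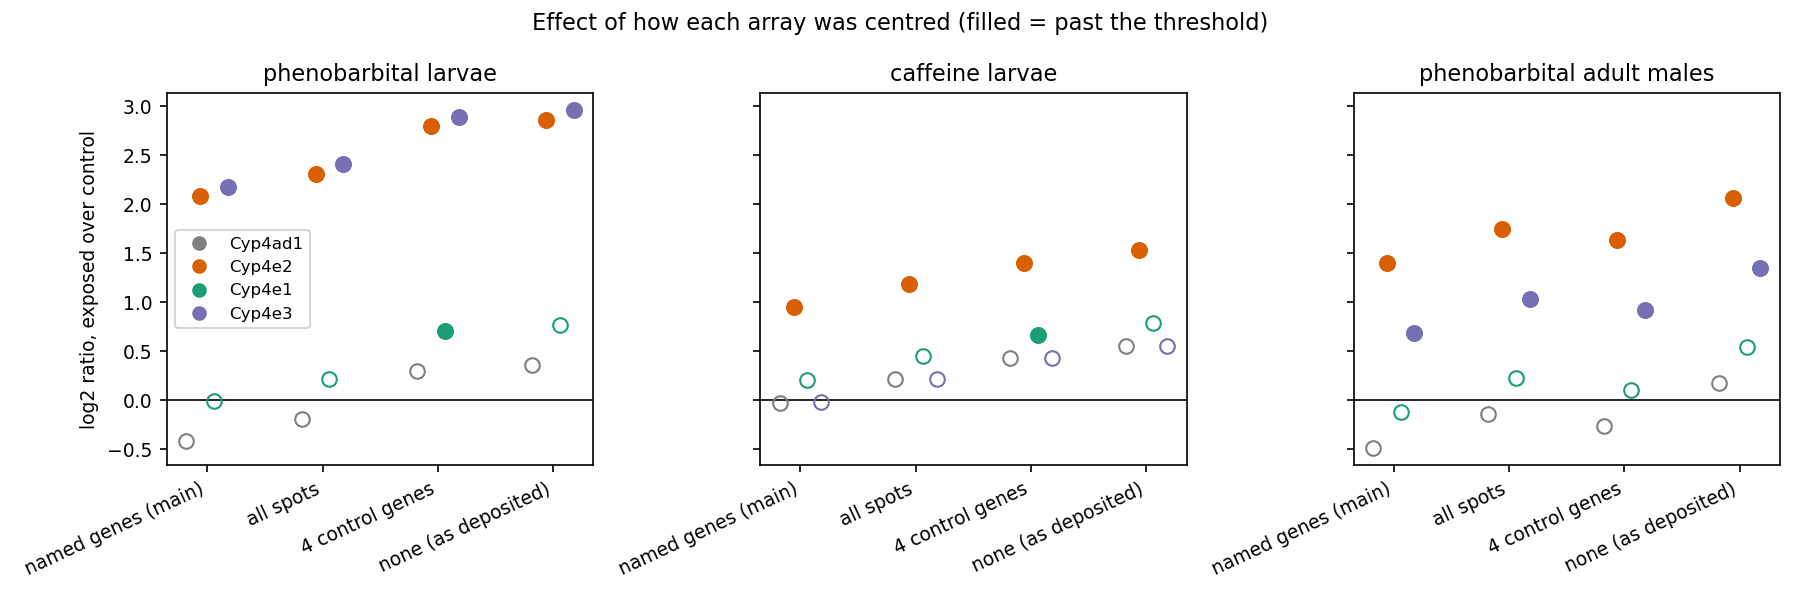
Log2 ratio of exposed over control (vertical axis) of the 4 genes in phenobarbital larvae, caffeine larvae and phenobarbital adult males, under 4 choices of the zero point of each array (horizontal axis). Filled points passed the threshold: Cyp4e1 is filled only with the control genes as zero point, at 0.70 in phenobarbital larvae and 0.67 in caffeine larvae, and Cyp4e2 is filled under all 4 choices in all 3 exposures.

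Differences between 2 genes on the same array do not depend on the zero point, and they were tested over all 12561 pairs of named genes. In phenobarbital larvae, 4 of the 6 pairs among these genes differed, where 49.4% of all gene pairs did. Cyp4e2 exceeded its neighbour Cyp4e1 by 2.09 ± 0.24 on the log2 scale, or 4.26-fold (SE, n = 4, limma adjusted p = 1.92e-08). Cyp4e2 exceeded Cyp4ad1, its neighbour on the other side, by 2.50 ± 0.30, or 5.66-fold (SE, n = 4, limma adjusted p = 4.79e-08). The unlinked Cyp4e3 exceeded Cyp4e1 by 2.19 ± 0.27 and Cyp4ad1 by 2.60 ± 0.25, each higher on 4 of 4 arrays. The 2 genes that rose were not separated from each other: Cyp4e2 minus Cyp4e3 was -0.10 ± 0.18 (SE, n = 4, limma adjusted p = 0.685), with a 95% interval of -0.47 to 0.27. Cyp4e1 minus Cyp4ad1 was 0.41 ± 0.37 (SE, n = 4, limma adjusted p = 0.375), with an interval of -0.34 to 1.16.

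In phenobarbital adult males Cyp4e2, with the higher estimate, and Cyp4e3 rose as well. These were 2 of the 4 genes, where 18.2% of the named genes were called. Cyp4e2 read 1.66, 1.20 and 1.92 on the 3 adult phenobarbital arrays, all above 0. Its estimate was 1.41 ± 0.20, a 2.65-fold rise (SE, n = 3, limma adjusted p = 2.21e-06), and it stood 11th from the top. Cyp4e3 read 0.66, 0.86 and 0.71, a narrow spread well below its larval arrays. Its estimate was 0.69 ± 0.18, a 1.61-fold rise (SE, n = 3, limma adjusted p = 0.00565), close to the 1.5-fold minimum, and it was not called without array 2 (0.51). Cyp4e1 was at -0.12 ± 0.26 (limma adjusted p = 0.795) and Cyp4ad1 at -0.49 ± 0.25 (limma adjusted p = 0.236), both below 0 on 3 of 3 arrays. For Cyp4ad1 the first pair of spots read -0.33, 0.53 and -0.54 and the second 0.56, -2.04 and -0.63, so that the sign of the average was not shared by both pairs on arrays 1 and 2. Fitted alone, the pairs gave -0.08 and -0.86, neither called.

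Set against each other, the larval estimate of Cyp4e3 exceeded the adult one by 1.49 ± 0.24 on the log2 scale (limma adjusted p = 2.50e-05). That of Cyp4e2 exceeded the adult one by 0.67 ± 0.27, with an interval of 0.13 to 1.22, but did not pass the adjusted threshold (limma adjusted p = 0.0804). It was called with the control genes as zero point (1.16), with the median of the spots (0.79), with a dye term per exposure (0.59), with the identical arrays kept (1.12) and without adult array 2 (0.87). So 1 of the 4 genes differed between larvae and adults, where 17.6% of the named genes did. With the ratios as deposited, the Cyp4e3 difference was 1.61 and was not called, and with arrays scaled to the same spread it was 0.58 and was not called. The larvae ate the drug and the adults walked on it, so stage, sex, route and dose cannot be told apart in this difference.

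Among the pairs in adult males, 4 of 6 differed, where 26.1% of all gene pairs did. Cyp4e2 exceeded Cyp4e1 by 1.52 ± 0.28, Cyp4ad1 by 1.89 ± 0.35 and Cyp4e3 by 0.72 ± 0.21, and Cyp4e3 exceeded Cyp4ad1 by 1.18 ± 0.29 (limma adjusted p from 8.97e-05 to 0.0104), each higher on 3 of 3 arrays. Cyp4e3 minus Cyp4e1, at 0.81 ± 0.32, missed the threshold (SE, n = 3, limma adjusted p = 0.0597). Cyp4e2 minus Cyp4e3 was not called without array 2 (0.70) or without array 3 (0.67). It was also not called with the first (0.53) or the second (0.90) pair of spots alone. With no dye term (0.85) and with the identical arrays kept (0.38) it failed as well. The order of Cyp4e2 above Cyp4e3 in adult males is therefore not firm. Cyp4e3 minus Cyp4ad1 was not called without array 2 (0.89) or with the second pair of spots alone (1.09).

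**Figure D3:**
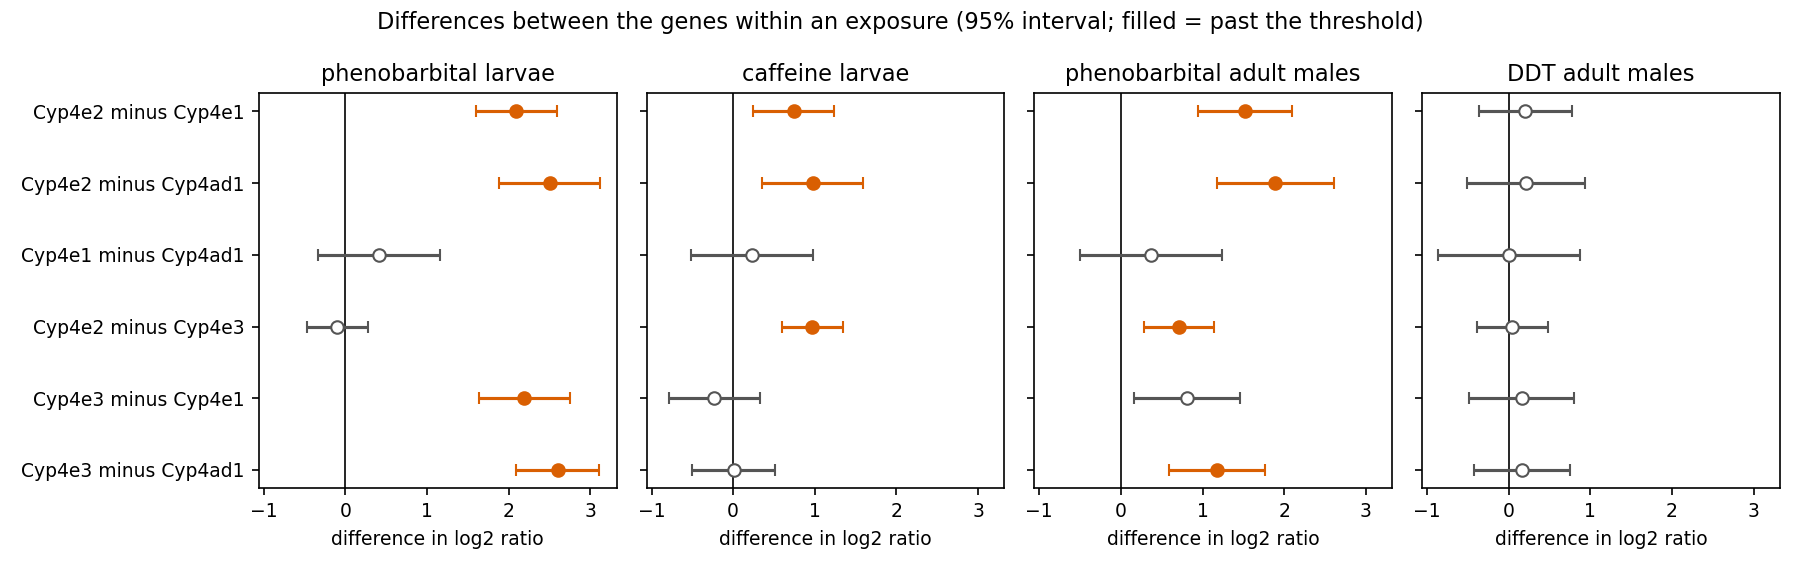
Difference in log2 ratio between 2 genes (horizontal axis) for the 6 gene pairs (rows) in 4 exposures, with 95% intervals, filled where the pair passed the threshold. Cyp4e2 minus Cyp4e1 is above 0 in phenobarbital larvae (2.09), caffeine larvae (0.74) and phenobarbital adult males (1.52), and no pair is filled in DDT adult males.

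In caffeine larvae 1 of the 4 genes rose, Cyp4e2, where 17.6% of the named genes were called. Its log2 ratio was 1.74, 0.17, 1.57 and 0.32 on the caffeine arrays. All 4 arrays were above 0, with the arrays that carried the exposed pool in Cy5 far above the others. The estimate was 0.95 ± 0.17, a 1.93-fold rise (SE, n = 4, limma adjusted p = 8.76e-05), at rank 14 from the top. Without a dye term the same estimate was not called. Cyp4e3 averaged -0.02 ± 0.16 (limma adjusted p = 0.969) over arrays that split by dye, at 0.71 and 0.41 with the exposed pool in Cy5 and at -0.59 and -0.60 with it in Cy3. Cyp4e1 (0.21 ± 0.23) and Cyp4ad1 (-0.02 ± 0.22) split in the same manner, in opposite directions, and were each above 0 on 2 of 4 arrays.

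Of the gene pairs in caffeine larvae, 3 of 6 differed, where 24.7% of all gene pairs did. Cyp4e2 exceeded Cyp4e3 by 0.97 ± 0.18 (limma adjusted p = 0.000132) and Cyp4ad1 by 0.97 ± 0.30 (limma adjusted p = 0.0167), on 4 of 4 arrays each. Cyp4e2 minus Cyp4e1 was 0.74 ± 0.24 (limma adjusted p = 0.0223), but it was above 0 on only 2 of 4 arrays, those with the exposed pool in Cy5. Leaving out 1 caffeine array ended 1 of the 3 calls each time: Cyp4e2 minus Cyp4e1 without array 1 (0.42) or array 3 (0.71), and Cyp4e2 minus Cyp4ad1 without array 2 (0.91) or array 4 (0.86).

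Phenobarbital exceeded caffeine in larvae by 1.13 ± 0.24 for Cyp4e2 (limma adjusted p = 0.00103) and by 2.20 ± 0.22 for Cyp4e3 (limma adjusted p = 4.35e-09). These were 2 of the 4 genes, where 23.3% of the named genes differed. Cyp4e1 differed by -0.22 ± 0.32 and Cyp4ad1 by -0.40 ± 0.31, and neither passed the test. The Cyp4e2 difference was not called once all arrays had been given an equal spread (0.55), with no dye term (1.13) or with the first pair of spots alone (0.63).

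The array holds each gene at 2 places, each with 2 adjacent spots, and these pairs of spots gave a check within each hybridisation. In phenobarbital larvae both pairs called both genes: 2.33 and 1.87 for Cyp4e2, and 2.36 and 2.04 for Cyp4e3. The differences of 0.46 and 0.33 between pairs lie above the median of 0.19 over the 159 genes and below the 90th percentile of 1.06. In caffeine larvae the pairs of Cyp4e2 parted. The first pair read 2.25, 0.98, 2.18 and 0.98 over the 4 arrays, above 0 throughout. The second pair read 1.24, -0.23, 0.96 and -0.34, below 0 on both arrays with the exposed pool in Cy3. Fitted alone, the first pair gave 1.70 ± 0.20 (limma adjusted p = 1.13e-07) and the second 0.40 ± 0.17, which was not called (limma adjusted p = 0.110). Their difference of 1.30 compares with a median of 0.36 over the 159 genes and a 90th percentile of 1.28.

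In phenobarbital adult males the pairs of Cyp4e3 also differed. The first pair read 1.25, 0.995 and 1.12, and the second 0.08, 0.72 and 0.29, both above 0 on all 3 arrays. The difference between their estimates, 0.81, lies between the median of 0.31 and the 90th percentile of 1.72 over the 159 genes in this exposure. Fitted alone they gave 1.06 ± 0.19 (limma adjusted p = 6.02e-05) and 0.25 ± 0.22 (limma adjusted p = 0.507), so that the second pair alone did not call Cyp4e3 in adult males. Both pairs called Cyp4e2 in adult males, at 1.59 and 1.15. The second pair of Cyp4ad1 had many missing and whole-number values: 22.1% of its values were missing and 39.6% of those present were ratios of whole numbers up to 5, against 5.00% and 8.12% over all named genes. Its signal was not measured. Cyp4e2 minus Cyp4ad1 in phenobarbital adult males was called with either pair, at 1.67 with the first and 2.03 with the second. The second value rests on the Cyp4ad1 spots with many missing and whole-number values, so it is no sound check of the first. Whether the 2 places carry the same probe is not given in the sources used here.

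**Figure D4:**
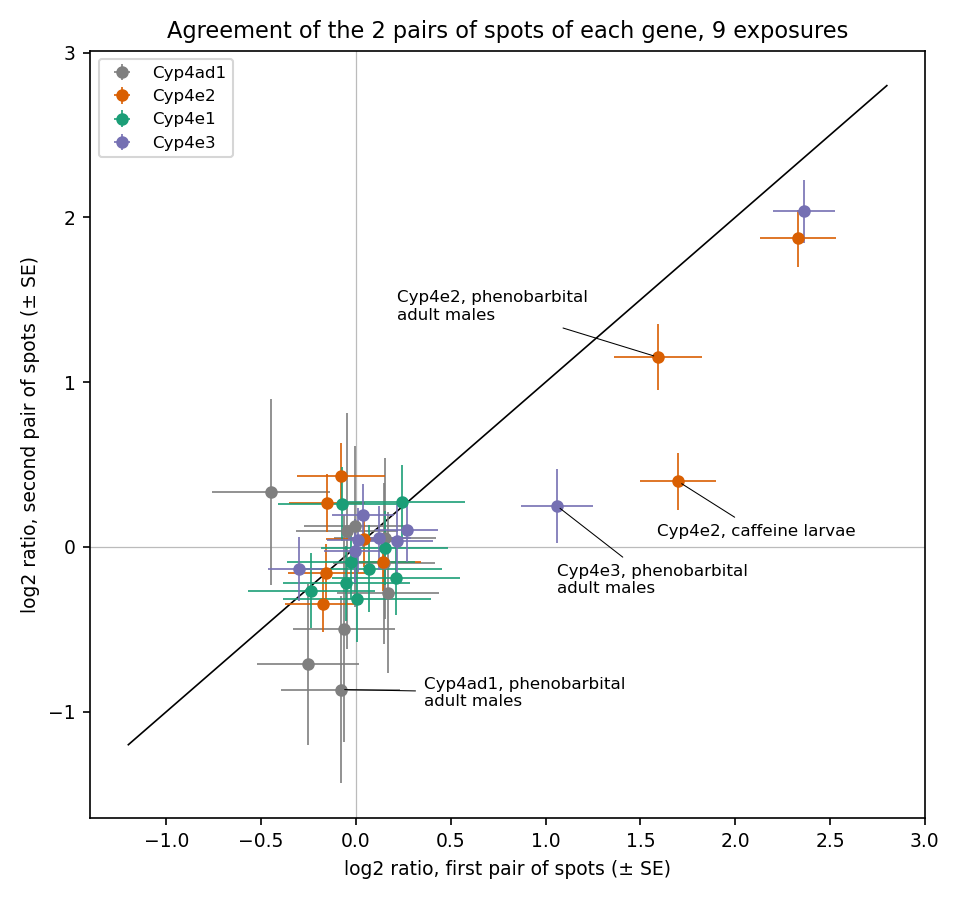
Log2 ratio of exposed over control from the first pair of spots (horizontal axis) and from the second pair (vertical axis) for the 4 genes in 9 exposures, with SE bars and the line of equality. Cyp4e2 in caffeine larvae (1.70 and 0.40) and Cyp4e3 in phenobarbital adult males (1.06 and 0.25) lie far below the line, while both genes in phenobarbital larvae lie below it but nearer.

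DDT in adult males called 0 of the 4 genes (limma, and 0 at an unadjusted p under 0.05), where 6.29% of the named genes were called. Cyp4e2 read 0.65, -0.26 and 0.81, with the array of the exposed pool in Cy3 below 0, and averaged 0.21 ± 0.20. Cyp4e3 read 0.48, -0.02 and 0.20, for an estimate of 0.17 ± 0.18. Cyp4e1 and Cyp4ad1 were at 0.01 ± 0.26 and 0.00 ± 0.25. None of the 6 gene pairs differed, where 5.19% of all pairs did. DDT stood below phenobarbital by 1.19 ± 0.28 for Cyp4e2 (a difference of -1.19, limma adjusted p = 0.00331). This was 1 of the 4 genes, where 8.18% of the named genes differed. It was not called with no dye term (-1.19), with the identical arrays kept in both sets (-0.89) or with the second pair of spots alone (-0.72). The difference for Cyp4e3 was -0.53 ± 0.26, with an interval of -1.06 to 0.01, and did not pass (limma adjusted p = 0.208). It was called with all spots (-1.06) or the control genes (-0.97) as zero point, with a dye term per exposure (-0.61), with the first pair of spots (-0.84) and with an equal spread for all arrays (-0.69), and a dye term per exposure also called Cyp4ad1 (0.75).

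The 5 larval insecticides called 0 of the 4 genes (limma, and 0 at an unadjusted p under 0.05). The share of named genes called was 0% for diazinon, 1.26% for dicyclanil, 0% for lufenuron, 0% for spinosad and 0.629% for nitenpyram, so a count of 0 among 4 is near that background. Estimates ran from -0.27 ± 0.17 for Cyp4e2 in lufenuron larvae to 0.21 ± 0.16 for Cyp4e3 in dicyclanil larvae. The highest upper limit of the 95% intervals in these 5 exposures was 0.44 for Cyp4e2 and 0.53 for Cyp4e3, both under the 2.08 and 2.18 of phenobarbital. None of the 6 gene pairs differed in any of the 5 (limma), with 1 of them, Cyp4e2 minus Cyp4e3 in lufenuron larvae, at an unadjusted p of 0.0491 and a value of -0.37. Over all gene pairs, 0% differed for diazinon, 1.28% for dicyclanil, 0.111% for lufenuron, 0.0796% for spinosad and 0.175% for nitenpyram.

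For Cyp4e2 these small estimates were averages over arrays that split by dye. Over the 5 insecticides, it was above 0 on 8 of 10 arrays with the exposed pool in Cy5 and on 1 of 10 with it in Cy3. In nitenpyram larvae it read 1.04 and 1.07 in the Cy5 arrays and -0.996 and -1.01 in the Cy3 arrays. Over the 5 insecticides Cyp4e1 was above 0 on 2 of 10 Cy5 arrays and on 6 of 10 Cy3 arrays, but in nitenpyram larvae it averaged 0.42 in the Cy5 arrays and -0.53 in the Cy3 arrays. Cyp4e3 was above 0 on 6 of 10 Cy5 and 4 of 10 Cy3 arrays, and Cyp4ad1 on 4 of 10 of each. The dye term fitted over all exposures was 0.56 for Cyp4e2, 0.16 for Cyp4e3, 0.09 for Cyp4ad1 and -0.19 for Cyp4e1. After the dye term was removed, the correlation over all named genes between the mean of the Cy5 arrays and the mean of the Cy3 arrays was 0.92 in phenobarbital larvae, 0.68 in phenobarbital adult males and 0.43 in caffeine larvae, and lay between -0.72 and -0.15 in the other 6 exposures.

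With each larval pool pair taken as 1 value, the 5 insecticides could be set against caffeine and phenobarbital over 7 pool pairs. The SE and p-values of this comparison measure the spread between pool pairs, each of another compound. Cyp4e2 averaged -0.05 in the 5 insecticides and 1.52 in the 2 inducers, a difference of -1.57 ± 0.28 (limma adjusted p = 0.00527) that was not called with the second pair of spots alone (-1.19). Cyp4e3 averaged 0.04 and 1.08, a difference of -1.04 ± 0.47 that did not pass (limma adjusted p = 0.129). It passed without the caffeine pool pair (-2.14), with the ratios as deposited (-1.84) and with the control genes as zero point (-1.69), and Cyp4e1 passed under these 2 zero points (-0.94 and -0.79). This made 1 of 4 genes, where 28.3% of the named genes passed an adjusted p under 0.05.

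Ordered by estimate, Cyp4e2 ran from phenobarbital larvae (2.08) to phenobarbital adult males (1.41), caffeine larvae (0.95), DDT adult males (0.21) and then the 5 insecticides. The 95% interval of the step between neighbours excluded 0 between the larval and adult phenobarbital estimates (0.13 to 1.22) and between caffeine and DDT (0.19 to 1.28), and at no other step. Cyp4e3 ran from phenobarbital larvae (2.18) to phenobarbital adult males (0.69) and dicyclanil larvae (0.21), and only the first step was clear of 0 (0.99 to 1.99). The order of Cyp4e1, from caffeine larvae (0.21) to dicyclanil larvae (-0.22), and that of Cyp4ad1, from lufenuron larvae (0.10) to phenobarbital adult males (-0.49), had no step between neighbours that was clear of 0.

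**Figure D5:**
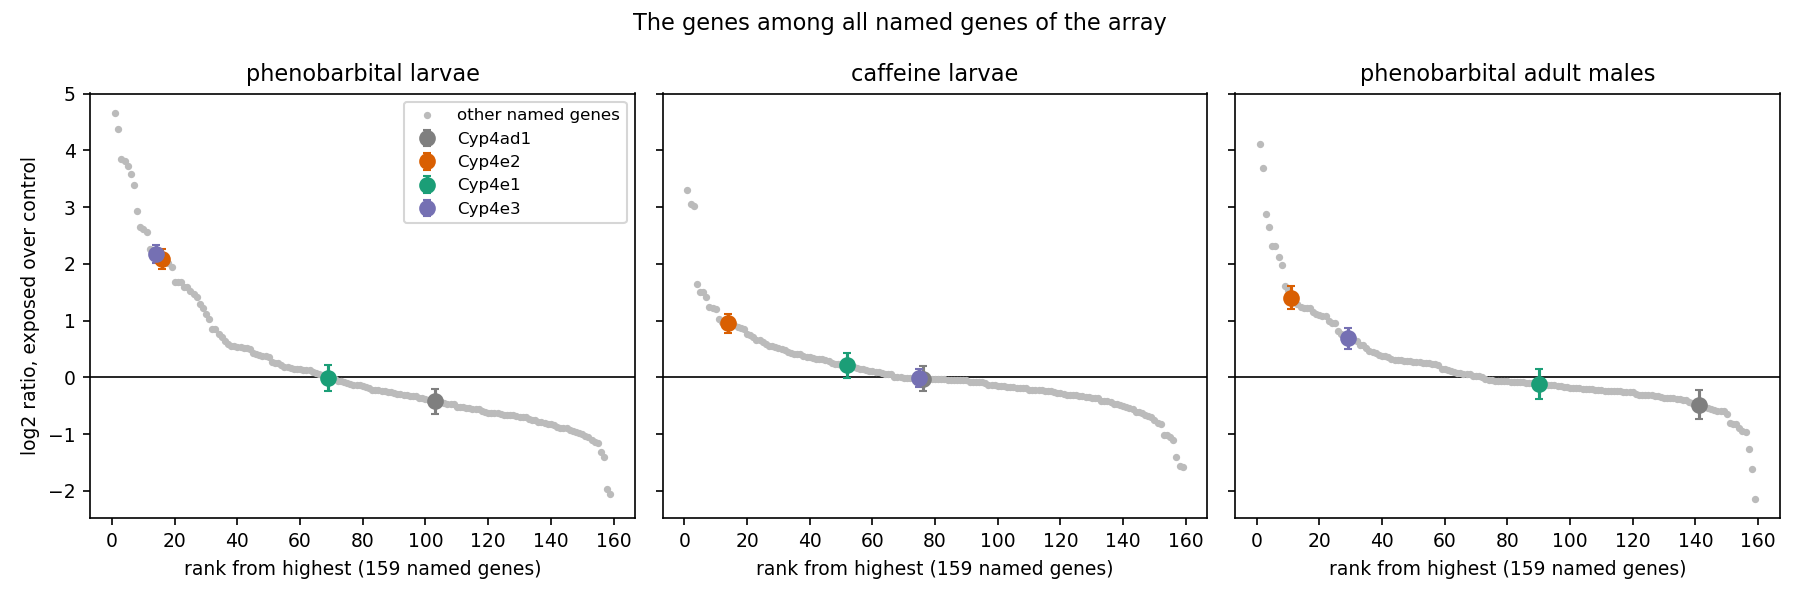
Log2 ratio of exposed over control (vertical axis) of the 159 named genes, ranked from the highest (horizontal axis), in phenobarbital larvae, caffeine larvae and phenobarbital adult males, with the 4 genes in colour ± SE. Cyp4e2 ranks 16, 14 and 11 in these exposures, Cyp4e3 ranks 14, 75 and 29, and Cyp4e1 and Cyp4ad1 lie in the flat middle or the lower part.

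The patterns over the 9 exposures were described without a test, since the exposures differ in compound and stage. The genes most like Cyp4e2 were the P450 gene Cyp6a21 (Pearson r = 0.98 over 9 exposures), the glutathione S-transferase gene GstE3 (0.96) and the P450 gene Cyp6w1 (0.96). Without the 2 phenobarbital exposures these correlations were 0.91, 0.89 and 0.94 over 7 exposures. Those most like Cyp4e3 were the P450 gene Cyp4d14 (0.95), the glutathione S-transferase gene GstD5 (0.95) and Cyp6a9 (0.95), and without phenobarbital these were -0.23, 0.44 and 0.05. Likewise Cyp4e2 and Cyp4e3 had r = 0.85 over 9 exposures, and r of about 0 (-0.00051) over the 7 without phenobarbital. In those 7 exposures Cyp4e3 was not called, with estimates from -0.22 to 0.21 and SE of 0.16 to 0.18. Its correlations there cannot show which genes it goes with. Cyp4e2 was called there only in caffeine larvae (0.95), where its second pair of spots alone did not call it (0.40). For Cyp4e1 the closest genes were Cyp4g15 (0.71), Cyp313a1 (0.55) and the neuroligin gene Nlg3 (0.52), and without phenobarbital these were 0.76, 0.52 and 0.48. For Cyp4ad1 they were the carboxylesterase gene alpha-Est5 (0.88), the ecdysteroid synthesis gene spo (0.83) and the esterase gene clt (0.81), and without phenobarbital these were 0.78, 0.20 and 0.17. Neither Cyp4e1 nor Cyp4ad1 was called in any of the 9 exposures. Cyp4e1 ran from -0.22 to 0.21 with SE of 0.23 to 0.26, and Cyp4ad1 from -0.49 to 0.10 with SE of 0.22 to 0.25. Their correlations cannot show which genes they go with either. All these correlations share the arrays, and so their dye and centring errors.

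Among the 18 other CYP4 family genes on the array, 4 rose and 3 fell in phenobarbital larvae, where 43.4% of all named genes were called. Their median log2 ratio was 0.13 against -0.15 for all named genes. Cyp4d14 (3.84 ± 0.20, limma adjusted p = 2.87e-16) and Cyp4ae1 (2.07 ± 0.21, limma adjusted p = 1.02e-09) were the highest. Cyp4g1, the P450 that makes cuticular hydrocarbons in oenocytes (-0.95 ± 0.23, limma adjusted p = 0.000836), and Cyp4p3 (-0.66 ± 0.21, limma adjusted p = 0.0105) were the lowest. The other calls were Cyp4p1 (1.58), Cyp4d8 (0.59) and Cyp4s3 (-0.63), chosen after their values were seen. Cyp4e2 and Cyp4e3 thus stood beside Cyp4ae1 and below Cyp4d14. In caffeine larvae 3 of the 18 rose and 0 fell, where 17.6% of all named genes were called. They were Cyp4ae1 at 1.42, Cyp4d14 at 0.76 and Cyp4p3 at 0.62. In phenobarbital adult males 4 rose and 0 fell, where 18.2% of all named genes were called. They were Cyp4ae1 at 2.11, Cyp4d14 at 1.36, Cyp4d8 at 1.22 and Cyp4p1 at 1.10. DDT called 1, Cyp4ac1, which fell (-0.98), where 6.29% of all named genes were called. The 5 insecticides called 0 of the 18 (limma), with 1 in lufenuron and 1 in spinosad at an unadjusted p under 0.05. Of all named genes, 0% to 1.26% were called in these 5.

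Besides Cyp4g1, the ecdysteroid synthesis genes spo, phtm, dib and sad were looked at. Of these, only spo was called in phenobarbital larvae (-0.83 ± 0.17), where 43.4% of the named genes were called. Only phtm was called in caffeine larvae (-1.56 ± 0.56, limma adjusted p = 0.0483), where 17.6% were called. Only phtm was called in phenobarbital adult males (-2.14 ± 0.64, limma adjusted p = 0.0164), where 18.2% were called. The other two, dib and sad, did not pass the test in any of these 3 exposures, and the ratios do not give the level of any of them. Their part in the values of the 4 genes was not tested.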

How the data were processed

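The values are log2 dye ratios per spot, as deposited by the authors. The submitters' processing notes name limma, and give neither its role nor the background correction, and the deposited ratios were not centred, with array medians of the named genes from -1.95 to 0.63. Of all entries, 8543 were without a value, and 2301 at a ceiling ratio of 1e+05 were treated as missing.

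Spots were averaged per gene, the median of all named genes was subtracted on each array, and ratios were turned to exposed over control. Over 34 arrays, a linear model with a coefficient for each exposure and a common dye term was fitted (limma 3.58.1, R 4.3.3), with moderated variances and Benjamini-Hochberg adjustment over 159 genes, or over 12561 gene pairs for differences between genes. Larval pool pairs were compared as 7 values. The scripts were tested on simulated data. RefSeq (Release 6) supplied names and neighbours, with 158 of 159 named genes found. Sequences were not used here.

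Arrays with the same number did not deviate together (median correlation -0.09), so the numbers were not treated as pairs. Genes with 1 symbol are called named genes. Singled out for values were the 4 genes, the 3 genes most correlated with each, and the 2 highest and 2 lowest other CYP4 genes in phenobarbital larvae, besides control, marker and direction genes and called CYP4 genes chosen after their values were seen. The genes and lists were chosen with earlier results of these data known. Alternatives covered centring, spread, spots, the dye term, a replicate block, the identical arrays and single arrays left out.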

Additional observations from a re-analysis of the deposited data

Results flagged for a closer look

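Over the 28 sets of 4 larval arrays (4 genes in 7 exposures), 2 had 1 array far from the other 3, where about 1 in 20 would be marked by chance. Cyp4ad1 on array 2 of the nitenpyram larvae was at 0.31, against -0.41 to -0.32 on the other 3 arrays. Cyp4e3 on array 3 of the lufenuron larvae was at -0.20, against 0.19 to 0.24 on the other 3 arrays. Neither gene was called in these exposures.

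The phenobarbital response of Cyp4e3 differed between larvae and adult males by 1.49 on the log2 scale, at 2.18 in larvae and 0.69 in adult males. Stage, sex, route and dose changed together.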

How the results depend on the processing

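The counts of genes called and of gene pairs that differed in phenobarbital larvae, in DDT adult males and in the 5 larval insecticides stayed within 1.5 times of those reported under every alternative run. That range includes the added call of Cyp4e1 in phenobarbital larvae with the control genes as zero point (0.70). With the ratios as deposited, 0 of the 4 genes differed between larvae and adult males under phenobarbital and 3 differed between the 5 insecticides and the inducers. With all spots as zero point, 2 differed between DDT and phenobarbital. With the control genes as zero point, 2 were called in caffeine larvae, 2 differed between larvae and adult males, 2 between DDT and phenobarbital and 3 between insecticides and inducers. With arrays scaled to the same spread, 1 differed between phenobarbital and caffeine, 0 between larvae and adult males and 2 between DDT and phenobarbital, and 1 pair differed in caffeine larvae. With the median of the spots, 2 differed between larvae and adult males. With a dye term per exposure, 2 differed between larvae and adult males and 3 between DDT and phenobarbital. With no dye term, 0 were called in caffeine larvae, 1 differed between phenobarbital and caffeine and 0 between DDT and phenobarbital, and 1 pair differed in caffeine larvae. With the identical arrays kept in both adult sets, 1 was called in phenobarbital adult males, 2 differed between larvae and adult males and 0 between DDT and phenobarbital, which then share a column. The other causes were not tested.

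The next settings were chosen after seeing the data. The first pair of spots alone gave 1 gene that differed between phenobarbital and caffeine and 2 between DDT and phenobarbital. The second pair alone gave 0 called in caffeine larvae, 1 in phenobarbital adult males, 0 between DDT and phenobarbital, 0 between insecticides and inducers, and 0 pairs in caffeine larvae and 2 in phenobarbital adult males. Leaving out whole-number ratios moved no count by over 1.5 times.

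Leaving out 1 array at a time gave 1 to 2 genes called in phenobarbital adult males, 1 to 2 that differed between larvae and adult males, 2 to 4 pairs in phenobarbital adult males and 2 pairs in caffeine larvae, the low adult counts and the high stage count without adult array 2. Leaving out 1 pool pair at a time gave 1 to 2 genes between insecticides and inducers, with 2 without caffeine.

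A replicate block on the array number left every count of the 4 genes and their 6 pairs as reported, with 2 genes and 4 pairs in phenobarbital larvae, and the numbers do not pair the arrays. Over all named genes, the count called moved by over 1.5 times in most exposures. In DDT adult males, with 10 called, it was 4 with the replicate block, 0 with no dye term and 20 with a dye term per exposure. It ran over the alternatives from 0 to 11 in dicyclanil larvae, with 2 called, from 0 to 3 in nitenpyram larvae, with 1, and up to 7 in lufenuron larvae and 2 in spinosad larvae, with 0 each. In phenobarbital larvae, with 69 called, it was 37 with arrays scaled to the same spread, in caffeine larvae, with 28, it was 47 with the control genes and 18 with no dye term, and in phenobarbital adult males, with 29, it was 44 with a dye term per exposure. Ratios alone give no signal over background.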
